A study of Mus musculus with 9 samples.

Results

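The 37 genes described here are the whole gene content of mouse mitochondrial DNA: 13 mRNAs, 2 rRNAs and 22 tRNAs. They are the rows of the deposited gene table that lie on chromosome MT, 37 of 55451 rows, and they were taken by that position and not by any measured value. Levels came from RNA sequencing of HEI-OC1, a mouse cell line that was immortalised from organ of Corti tissue and carries the label of a cochlear hair cell line. The cells carried, by transduction, a vector without insert (EV), LMX1A in its wild-type form (WT) or LMX1A carrying a duplication that the labels write as c.915dup (c915dup), and each group had 3 libraries. The product of LMX1A is a transcription factor of the LIM-homeodomain type; the labels name no promoter for it, no clone and no age or passage. EV and WT libraries are numbered 1, 2 and 3, whereas c915dup columns bear the numbers 1, 3 and 4, which name the group but no single sample. Nothing says that the libraries came from separate cultures, so p-values speak of the variation among these libraries, part or all of which may be technical.

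Mitochondrial DNA is a small circle that is copied and read inside the organelle. Both strands are transcribed as long precursors, from which the tRNAs are cut out, and this releases the mRNAs and rRNAs that lie between them. The mRNAs encode core subunits of the respiratory complexes I, III and IV and of the ATP synthase (complex V). The rRNAs and tRNAs serve the organelle's own ribosomes, and every other protein of the organelle is encoded in the nucleus. Inner ear hair cells use much ATP, and inherited changes in the mitochondrial rRNA and tRNA genes are a known cause of deafness in people.

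Values are in FPKM, which counts fragments relative to transcript length and to library depth, so that levels can be set beside each other between genes. Depth estimated from the smallest steps of the values was 13.03 to 16.08 per library in units of 1000000 fragments, and 11582 to 11884 genes per library reached 1 FPKM. Human LMX1A was at 0 in all EV libraries, between 131 and 133 FPKM in WT and between 149 and 170 FPKM in c915dup, as the labels require. All 14 hair cell markers examined (Myo7a, Pou4f3 and Atoh1 among them) stayed under 1 FPKM in every library, as did 5 of 8 supporting cell markers. All 8 mesenchymal markers, Col1a1 and Vim among them, were at 1 FPKM or more in every library, so the hair cell label is not borne out at the RNA level.

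In each group the library numbered 1 stood apart from the others in its mitochondrial genes. Mitochondrial rows held 5.46%, 4.36% and 5.49% of summed FPKM in EV 1, WT 1 and c915dup 1, and between 1.69% and 2.17% in the other 6 libraries. The mitochondrial genes that the comparisons turn on are therefore also given within the libraries numbered 1 and within the others. A larger share of mitochondrial RNA cannot be told apart from less RNA of other kinds in these bulk samples.

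**Figure D1:**
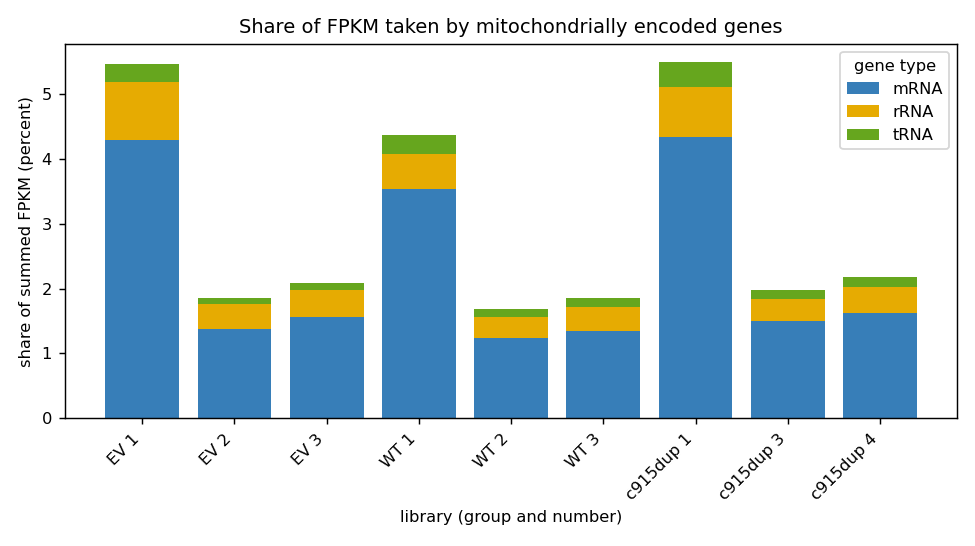
Share of each library's summed FPKM (vertical axis, percent) held by mitochondrially encoded mRNAs, rRNAs and tRNAs, stacked, with 1 bar per library. The 3 libraries numbered 1 reach 4.36% to 5.49% and the other 6 reach 1.69% to 2.17%.

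Several mitochondrial mRNAs have near-identical copies in the nuclear genome, which bears on how their values can be read. Aligning the mitochondrial transcripts with the transcripts of annotated genes on other chromosomes (GENCODE M21, build GRCm38) gave a copy of at least 200 bases at 90% identity or more for 11 of the 13 mRNAs, all except mt-Nd1 and mt-Atp8. On the minus strand of chromosome 1, 7 pseudogene rows lie within chr1:24611535-24616197, a stretch of 4663 bases, each at 99.71% identity or more. Copies at 100% identity over the aligned bases were found for mt-Co2 (Gm28661, 681 bases), mt-Atp6 (Gm10925, 678 bases), mt-Co3 (Gm28437, 783 bases), mt-Nd4l (Gm10222, 294 bases) and the first 876 of 1378 bases of mt-Nd4 (Gm28439). The last 483 bases of mt-Co1 matched Gm29216 with 1 mismatch. Copies of mt-Nd2, mt-Nd5, mt-Nd6 and mt-Cytb on other chromosomes reached 92.3% to 96.7% identity, and their rows stayed at 0.708 FPKM or lower. A read from a stretch without mismatches fits both places, and the sources used here do not say how the counting shared such reads, so the levels of these genes and of their copies are uncertain.

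The mt-Nd3 copy Gm28438 differs from mt-Nd3 at 1 aligned base, T3C, counted from the first base of mt-Nd3. Bases 1 to 43 of both are shown because they hold that one difference, in capitals, in the direction of mt-Nd3. The rows lie at chrMT:9459-9806 on the plus strand and at chr1:24612775-24613119 on the minus strand.
mt-Nd3: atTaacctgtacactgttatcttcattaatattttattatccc
Gm28438: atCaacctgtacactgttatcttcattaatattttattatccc
The remaining aligned bases hold no difference by which a read could be placed.

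The copy of the most abundant mRNA, mt-Co1 (chrMT:5328-6872, plus strand), can be told apart more readily. Gm13340 on the minus strand of chromosome 2 (chr2:22588103-22589647) matches it over 1545 bases at 97.6% identity with 37 mismatches. The first 150 bases are shown with the 3 differing bases in capitals: C54A, A60G and G87A, counted from the first base of mt-Co1.
mt-Co1: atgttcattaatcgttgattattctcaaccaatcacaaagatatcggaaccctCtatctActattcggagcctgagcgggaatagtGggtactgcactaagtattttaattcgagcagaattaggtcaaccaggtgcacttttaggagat
Gm13340: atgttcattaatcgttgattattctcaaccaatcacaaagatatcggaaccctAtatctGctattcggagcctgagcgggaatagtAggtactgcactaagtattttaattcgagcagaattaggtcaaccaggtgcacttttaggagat
Gm13340 itself stayed between 1.40 and 2.69 FPKM, while mt-Co1 was at 2655.5 FPKM or more in every library.

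Within the mitochondrial genome, neighbouring rows also overlap. The mt-Atp8 row (chrMT:7766-7969, plus strand) shares its last 43 bases, in capitals, with mt-Atp6; it is shown because it is the mRNA with the largest difference between libraries described below.
mt-Atp8: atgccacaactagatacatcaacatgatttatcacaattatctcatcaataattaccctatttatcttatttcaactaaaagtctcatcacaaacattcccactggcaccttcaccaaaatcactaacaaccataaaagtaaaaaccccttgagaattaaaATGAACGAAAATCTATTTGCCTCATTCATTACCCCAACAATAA
The mt-Nd4l and mt-Nd4 rows share 7 bases, and mt-Nd5 and mt-Nd6 share 14 bases on opposite strands. It is not stated whether strand entered the counting, so reads of mt-Nd6, the one mRNA of the minus strand, cannot be told apart from reads of the plus strand precursor across it. The same holds for the tRNAs of the minus strand, mt-Te among them.

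Complex IV held both the highest level and some of the lowest. mt-Co1, the catalytic subunit of cytochrome c oxidase, was at 7136, 3203 and 3492 FPKM in EV 1, 2 and 3, at 5495, 2655.5 and 2827 FPKM in WT 1, 2 and 3, and at 6929, 3252 and 3407 FPKM in c915dup 1, 3 and 4. It was the highest of the 13 mRNAs in every library. mt-Co2 (chrMT:7013-7696), whose copper centre takes electrons from cytochrome c, was at 50.3, 10.6 and 12.5 FPKM in EV, at 38.6, 7.82 and 9.26 FPKM in WT and at 59.5, 9.48 and 21.9 FPKM in c915dup. mt-Co3, a structural subunit, was at 22.7, 6.27 and 15.96 FPKM in EV, at 15.6, 5.06 and 6.17 FPKM in WT and at 21.96, 6.20 and 6.47 FPKM in c915dup. mt-Co2 thus stood between 0.292% and 0.858% of mt-Co1, although the 3 proteins are subunits of 1 complex.

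The ATP synthase mRNAs were as low. mt-Atp6, the subunit that forms the proton path, was at 32.3, 4.59 and 4.80 FPKM in EV, at 50.8, 4.52 and 3.50 FPKM in WT and at 39.1, 5.01 and 5.62 FPKM in c915dup. mt-Atp8, a small subunit of the same membrane part, was at 50.4, 1.21 and 2.30 FPKM in EV, at 67.9, 1.67 and 2.24 FPKM in WT and at 68.4, 1.66 and 3.24 FPKM in c915dup. In both genes each library numbered 1 lay above all 6 others.

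Complex I, the proton-pumping entry point for electrons from NADH, has 7 subunits encoded here, and they spread over the whole range. mt-Nd1 was at 1971, 492 and 582 FPKM in EV, at 1586, 493 and 537 FPKM in WT and at 2166, 615 and 697 FPKM in c915dup. mt-Nd2 was at 934, 93.3 and 127 FPKM in EV, at 834, 115 and 127 FPKM in WT and at 1144, 142 and 166 FPKM in c915dup. mt-Nd5 followed the same order, with 963 to 1272 FPKM in the libraries numbered 1 and 166 to 229.6 FPKM elsewhere. These 3 lay in every library far above mt-Nd3 and mt-Nd4l, the shortest mRNAs of the complex. In part of the libraries not numbered 1, mt-Nd2 lay below mt-Nd6. mt-Nd4 was at 520 to 697 FPKM in the libraries numbered 1 and at 81.4 to 125 FPKM in the others. mt-Nd6 was at 322 to 396 FPKM and at 111 to 164 FPKM. mt-Nd4l was at 17.9 to 26.5 FPKM in the libraries numbered 1 and at 0.960 to 2.59 FPKM in the others. mt-Nd3 was the lowest mRNA, with 3.09, 2.58 and 4.87 FPKM in EV 1, WT 1 and c915dup 1 and with 0 to 0.735 FPKM in the others, an estimated 0 to 23.0 fragments per library. It passed the filter on low values (at least 1 FPKM in at least 3 libraries) through the libraries numbered 1 alone.

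Complex III has 1 mitochondrially encoded subunit, cytochrome b. Its mRNA mt-Cytb ranked second in both sets of libraries, at 2691, 560.0 and 665 FPKM in EV, at 2227, 542 and 611 FPKM in WT and at 2744, 645 and 720 FPKM in c915dup.

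The low mRNAs are neighbours. From mt-Co2 to mt-Nd4l, the 6 mRNAs mt-Co2, mt-Atp8, mt-Atp6, mt-Co3, mt-Nd3 and mt-Nd4l were between 0 and 68.4 FPKM, while the other 7 were between 81.4 and 7136 FPKM. The 4 tRNAs that failed the filter on low values, mt-Td, mt-Tk, mt-Tg and mt-Tr, lie in the same stretch; mt-Td and mt-Tg were at 0 in every library. The stretch coincides with the chromosome 1 copies, whose own rows were at 0.912 to 45.4 FPKM. Gm28438 was higher than mt-Nd3, with 2.28 to 12.1 FPKM, and Gm10925 exceeded mt-Atp6 in the libraries not numbered 1, with 8.39 to 11.2 against 3.50 to 5.62 FPKM. The match is not complete. At one edge mt-Nd4 was high although 63.6% of it is copied in Gm28439. Inside the stretch mt-Atp8 was low without an annotated copy of its own. Its last 43 bases are also the start of mt-Atp6, which Gm10925 matches. Only annotated transcripts were searched, so an unannotated copy of the rest of mt-Atp8 would have been missed. The part of shared reads in these levels was not tested.

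**Figure D2:**
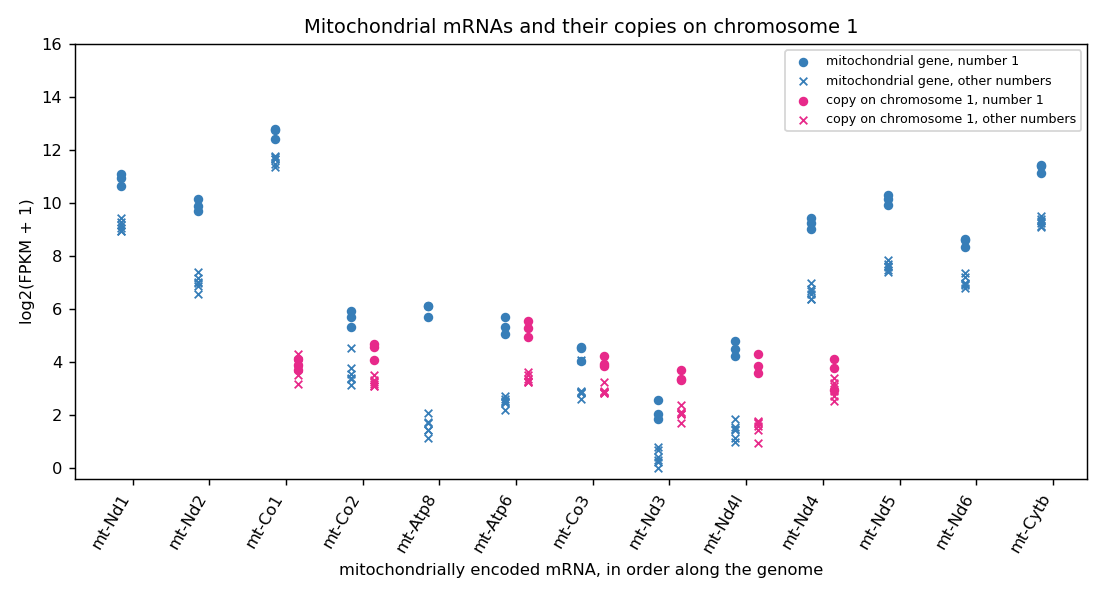
Level as log2(FPKM + 1) of the 13 mitochondrial mRNAs in genome order and of their copies on chromosome 1, with 1 point per library; filled circles are libraries numbered 1 and crosses the other 6. The mRNAs from mt-Co2 to mt-Nd4l lie at 68.4 FPKM or lower, the copies at 45.4 FPKM or lower, and mt-Co1 at 2655.5 FPKM or higher. No copy was found for mt-Atp8, and mt-Nd3 lies below its copy.

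Of the rRNAs, the large-subunit mt-Rnr2 was at 2350 FPKM in EV 1 and at 1018.5 and 1081 FPKM in EV 2 and 3, at 1447, 885 and 1042 FPKM in WT and at 2120.0, 935 and 1063 FPKM in c915dup. The small-subunit mt-Rnr1 was at 777, 258 and 296 FPKM in EV, at 444, 202 and 259 FPKM in WT and at 612, 244 and 284 FPKM in c915dup. Both again separated the libraries numbered 1 from the others.

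Among the tRNAs, mt-Tl1 (leucine), which lies between mt-Rnr2 and mt-Nd1, was the highest, and it held 37.3% to 48.2% of the tRNA total. It was at 413, 169.8 and 181 FPKM in EV, at 366, 178 and 198 FPKM in WT and at 577, 219 and 254 FPKM in c915dup. mt-Te (glutamate), between mt-Nd6 and mt-Cytb, was at 230.1, 35.0 and 41.1 FPKM in EV, at 288, 49.8 and 61.1 FPKM in WT and at 361, 54.6 and 67.7 FPKM in c915dup. Within each number class its EV values were the lowest. mt-Ty (tyrosine) was at 63.6 to 93.1 FPKM in the libraries numbered 1 and at 30.8 to 44.3 FPKM in the others. mt-Tw (tryptophan), mt-Ta (alanine), mt-Tn (asparagine), mt-Tc (cysteine), mt-Tt (threonine) and mt-Tp (proline) were between 24.4 and 47.3 FPKM in the libraries numbered 1 and between 10.3 and 26.4 FPKM in the others. mt-Tv (valine), mt-Ti (isoleucine), mt-Tq (glutamine), mt-Tm (methionine) and mt-Ts1 (serine) were between 7.88 and 27.1 FPKM and between 1.65 and 10.97 FPKM. The 4 lowest that passed the filter were mt-Tf (phenylalanine), mt-Th (histidine), mt-Ts2 (serine) and mt-Tl2 (leucine), at 5.56 FPKM or lower in every library; mt-Tf passed through the libraries numbered 1 alone. How the effective length of such short rows was set is not given, so tRNA levels are less certain than those of the long mRNAs.

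**Figure D3:**
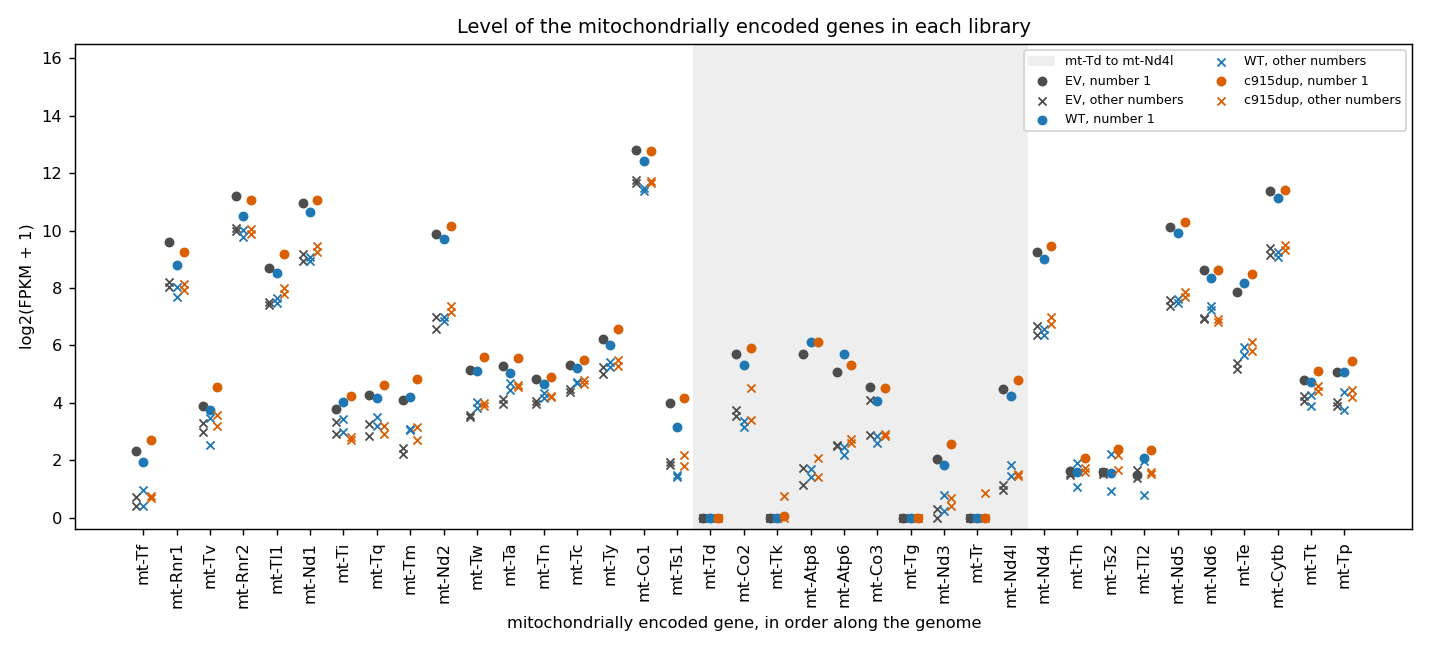
Level as log2(FPKM + 1) of all 37 mitochondrially encoded genes in genome order, with 1 point per library, coloured by group; filled circles are libraries numbered 1 and crosses the other 6. The shaded stretch from mt-Td to mt-Nd4l holds the 6 low mRNAs and the 4 tRNAs that failed the filter on low values, and the filled circles lie above the crosses in most genes.

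The libraries numbered 1 held more of nearly every mitochondrial RNA, but by unequal amounts. For each group the difference in log2(FPKM + 1) between the library numbered 1 and the mean of the other 2 was taken; on this scale the change of a gene with few FPKM comes out too small, and no test is given because the split was seen in these libraries beforehand. The mitochondrial total was higher by 1.51 in EV, 1.32 in WT and 1.48 in c915dup on the log2 scale (mean 1.44 ± 0.10, SD over the 3 groups). Of the 33 mitochondrial genes tested, 29 were higher in all 3 libraries numbered 1 than in all 6 others and 0 were lower in the same sense. Among the 29, mt-Nd3 and mt-Tf had passed the filter through the libraries numbered 1 alone, so their place in this count was favoured beforehand. Over all 11933 genes tested the shares were 16.1% higher and 7.95% lower. The median over all genes tested was 0.05.

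mt-Atp8 differed most, by 4.39 ± 0.15 (SD over the 3 groups), which is a 30.3-fold ratio of mean FPKM. In the libraries not numbered 1 mt-Atp8 rests on an estimated 3.2 to 10.62 fragments, and mt-Nd4l on 3.7 to 10.55. The size of both differences is therefore uncertain. mt-Nd4l (3.10), mt-Nd2 (2.92), mt-Atp6 (2.87), mt-Nd4 (2.63) and mt-Nd5 (2.53) followed in log2. mt-Cytb (2.03), mt-Co2 (2.02), mt-Nd3 (1.74), mt-Nd1 (1.74) and mt-Nd6 (1.498) lay in between on this scale. The ratio of mean FPKM was 10.3-fold for mt-Nd3, which had few FPKM, and 3.35-fold for mt-Nd1. mt-Co3 differed by 1.36, but EV 3 with 15.96 FPKM exceeded WT 1 with 15.6 FPKM. mt-Co1 showed the smallest difference of the 13 mRNAs, 1.05 ± 0.05, a 2.08-fold ratio. Ratios between the mRNAs therefore differed between the classes: mt-Nd2 stood at 13.1% to 16.51% of mt-Co1 in the libraries numbered 1 and at 2.91% to 4.86% in the others, and mt-Cytb at 37.7% to 40.5% and at 17.5% to 21.6%.

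The rRNAs and most tRNAs differed less than the mRNAs. mt-Rnr1 differed by 1.22 and mt-Rnr2 by 0.95, and mt-Rnr2 stood at 26.3% to 32.9% of mt-Co1 in the libraries numbered 1 and at 28.8% to 36.8% in the others, ranges that overlap. The median of the 18 tRNAs that passed the filter was 0.98, against 2.03 for the mRNAs. On the scale of log2(FPKM + 1), mt-Te (2.49) and, after it, mt-Ts1 were the tRNAs that differed most. The ratio of mean FPKM was larger for mt-Tf, 7.05-fold against 5.69-fold for mt-Te, though mt-Tf had few FPKM. mt-Th, mt-Ts2 and mt-Tl2 were the 3 tested tRNAs whose libraries overlapped. Among the 18 tRNAs the median was 0.94 over 10 on the plus strand and 1.03 over 8 on the minus strand. Since it is not stated whether strand entered the counting, these medians cannot show how the strands compare.

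Nuclear genes of the organelle did not rise together with the mitochondrial ones in the libraries numbered 1, though many differed in one direction or the other. Medians of the difference lay between -0.01 and 0.02 on the log2 scale in 5 lists: mitochondrial DNA maintenance and transcription, mitochondrial RNA processing, biogenesis and stress regulators, mitochondrial ribosomal proteins, and nuclear subunits of the respiratory complexes. Of the 80 nuclear respiratory subunits 18 were higher and 21 lower without overlap, and of the 78 mitochondrial ribosomal protein genes 12 were higher and 13 lower, against 16.1% higher and 7.95% lower over all genes tested. Of the 221 tested members of the lists 0 exceeded 1, and 2 lay below -1: Mrps34, of the small ribosomal subunit (-1.46 ± 0.17, SD over the 3 groups), and Ndufab1, the acyl carrier protein (-1.19 ± 0.18). These 2 were named after their values were seen. Of the 35 genes over 1 in the whole table, 22 were mitochondrially encoded. Among the other 13 were 5 of the chromosome 1 copies, Gm10222 (2.38), Gm10925 (1.89), Gm28438 (1.41), Gm28661 (1.20) and Gm28437 (1.09). Slirp, which with Lrpprc stabilises mitochondrial mRNAs, was at 10.2, 9.44 and 9.21 FPKM in the libraries numbered 1 and between 6.03 and 7.31 FPKM in the others, without overlap. Lrpprc itself overlapped, at 15.2 to 16.9 and 16.3 to 18.8 FPKM.

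Some other RNAs moved with the same split, where 16.1% of all genes tested were higher and 7.95% lower without overlap. Malat1, a long nuclear RNA, was at 279, 219 and 335 FPKM in EV 1, WT 1 and c915dup 1 and at 155 to 184 FPKM in the others. Of the single RNAs listed with Malat1, Rn7sk, Rmrp, Rpph1, Rny1, Rny3, Rn7s1, Rn7s2 and Neat1 overlapped between the classes, and Terc stayed at 0.374 FPKM or lower. Gm23935, which was not on that list, went the other way from Malat1, with 136, 42.4 and 44.0 FPKM against 3684 to 6943 FPKM. Small nucleolar RNAs, summed over 141 rows, were at 116 to 160.3 FPKM in the libraries numbered 1 and at 121 to 168 FPKM in the others, and histone mRNAs, over 70 rows, at 39.8 to 56.8 and 47.3 to 63.0 FPKM, both with overlap. The part of these RNAs in the mitochondrial result was not tested.

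**Figure D4:**
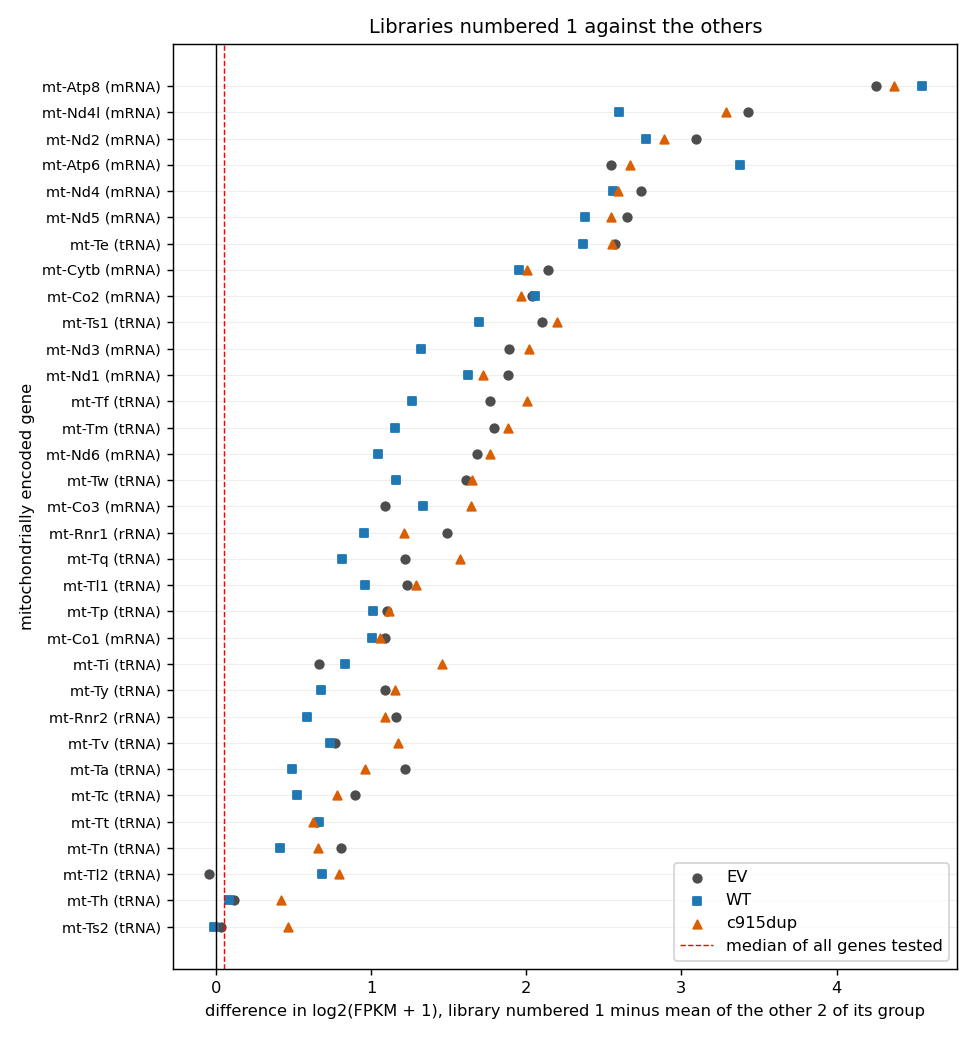
Difference in log2(FPKM + 1) between the library numbered 1 and the mean of the other 2 libraries of its group (horizontal axis) for the 33 mitochondrial genes that passed the filter on low values, with 1 point per group; the dashed line marks the median of all genes tested, 0.05. mt-Atp8 lies at the top near 4.39, mt-Co1 near 1.05, and the 3 groups lie close together in most genes.

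Between the groups, the question was whether wild-type or variant LMX1A changed the mitochondrial genes relative to the empty vector or to each other. With all 9 libraries and 3 group means, limma called 0 of the 33 tested members in each comparison at an adjusted p under 0.05, while 0.352% of all genes tested passed between WT and EV, 1.09% between c915dup and EV and 0.226% between c915dup and WT. At an unadjusted p under 0.05 the count of members was also 0 in each, and the smallest adjusted p from limma was 0.99, 0.55 and 0.58. The median standard error of a member was 0.65 on the log2 scale, since each group held 1 library numbered 1. With the library number as a block it was 0.14 between WT and EV and 0.16 in both other comparisons. Beyond number 1, libraries of equal number were not shown to be pairs. c915dup 4, alone in its number, carries no weight in a blocked difference.

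Wild-type LMX1A went with less mt-Co1. In the libraries numbered 1 it was at 5495 FPKM in WT and 7136 FPKM in EV, and in the others at 2655.5 and 2827 FPKM in WT against 3203 and 3492 FPKM in EV, so that no EV library was below a WT library of its class. The difference was -0.32 ± 0.45 (SE) on the log2 scale without the block (limma, adjusted p = 0.999) and -0.32 ± 0.03 with it (limma, adjusted p = 0.0012), and it was -0.38 in the libraries numbered 1 and -0.29 in the others. With the block, mt-Co1 was the 1 member called of 33, where 0.804% of all genes tested passed. Without the libraries numbered 1 it was not called (-0.29, limma, adjusted p = 0.062). Both rRNAs were also lower in WT in either class, mt-Rnr1 by -0.45 ± 0.14 and mt-Rnr2 by -0.32 ± 0.17 with the block, and did not pass (limma, adjusted p = 0.35 and 0.57). In the libraries numbered 1 they differed by -0.81 and -0.70, and in the others by -0.27 and -0.13. mt-Te went the other way, 0.46 ± 0.08 with the block, and did not pass either (limma, adjusted p = 0.066). Taking both classes together, 2 members were higher and 4 lower in WT in the libraries numbered 1 and without overlap in the others, against 13.6% and 13.8% of all genes tested. The libraries of the groups, taken without regard to number, overlapped in all 33, where 12.9% of all genes tested did not overlap.

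With the variant most members lay above EV by a small amount. In the libraries numbered 1, 29 of 33 were higher and 4 lower, and 19 of 33 were higher there and also higher without overlap in the others, against 17.7% of all genes tested; 0 were lower in this sense, against 19.3%. These 19 were 12 tRNAs and 7 mRNAs, and they share libraries and precursor transcripts, so they are not independent. mt-Te rose with the block by 0.54 ± 0.10 on the log2 scale (limma, adjusted p = 0.043), the 1 member called where 1.9% of all genes tested passed; without the block the difference was 0.66 ± 1.12 (limma, adjusted p = 0.90). In the libraries numbered 1 the difference was 0.65 and in the others 0.67, and without the libraries numbered 1 it was not called (limma, adjusted p = 0.085). mt-Te lies on the minus strand, and it is not stated whether strand entered the counting. mt-Tl1 was higher by 0.39 ± 0.11 and mt-Tt by 0.41 ± 0.11 with the block and did not pass there (limma, adjusted p = 0.17 and 0.13); within the libraries numbered 1 they differed by 0.48 and 0.34, and within the others by 0.42 and 0.36. mt-Co1 differed little, by -0.06 ± 0.03 with the block (limma, adjusted p = 0.43). Without regard to number, 1 member did not overlap, mt-Ts2, with 2.18 to 4.28 FPKM in c915dup and 1.87 to 1.99 FPKM in EV, where 16.9% of all genes tested did not overlap.

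Between the 2 forms of LMX1A, mt-Co1 was higher with the variant than with the wild type. It was at 6929 against 5495 FPKM in the libraries numbered 1 and at 3252 and 3407 against 2655.5 and 2827 FPKM in the others. The difference was 0.30 ± 0.45 without the block (limma, adjusted p = 0.90) and 0.26 ± 0.03 with it (limma, adjusted p = 0.015), the 1 member called of 33 where 1.15% of all genes tested passed. It was 0.33 in the libraries numbered 1 and 0.28 in the others. mt-Ts1 (0.68 ± 0.14, limma, adjusted p = 0.064) and mt-Nd4 (0.27 ± 0.06, limma, adjusted p = 0.090) had positive differences with the block and did not pass. Within the libraries numbered 1 they differed by 1.03 and 0.42, and within the others by 0.53 and 0.39. In the libraries numbered 1, 32 of 33 members were higher in c915dup, and 11 of 33 were higher there and also without overlap in the others, against 17.2% of all genes tested; 0 were lower in this sense, against 15.8%. Without regard to number all 33 overlapped, where 16.1% of all genes tested did not. This comparison shares its libraries with the comparisons against EV.

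Other ways of setting the libraries numbered 1 aside called further members, mostly tRNAs. With a term for those libraries in place of the block, limma called 1 member between WT and EV, 3 between c915dup and EV and 5 between c915dup and WT, where 1.22%, 5.54% and 4.81% of all genes tested passed. Without those libraries it called 1, 4 and 2 members, where 0.696%, 3.38% and 2.92% passed. mt-Tl1 was called between c915dup and EV in both (0.44 ± 0.08 with the term, limma, adjusted p = 0.023), and so was mt-Co1 between c915dup and WT (0.30 ± 0.04, limma, adjusted p = 0.0023). mt-Nd6 was called in the libraries not numbered 1 alone, 0.35 higher in WT than in EV (limma, adjusted p = 0.040) and changed by -0.43 from WT to c915dup (limma, adjusted p = 0.014); in the libraries numbered 1 it differed the other way, by -0.28 and 0.30.

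**Figure D5:**
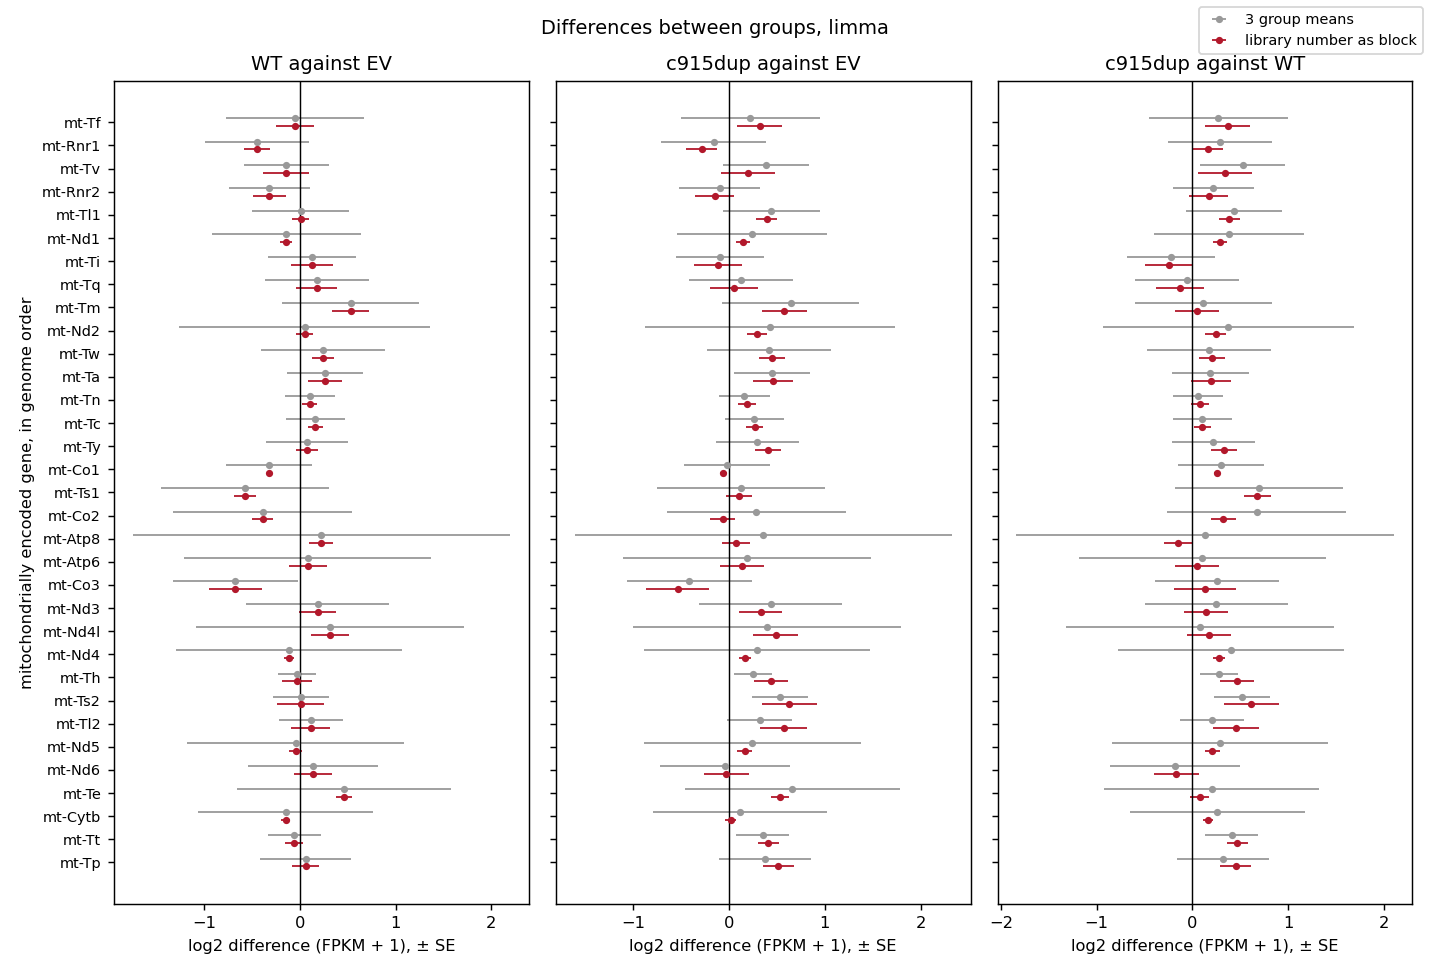
Log2 difference in FPKM + 1 between groups (horizontal axis, ± SE from limma) for the 33 tested mitochondrial genes in genome order, without a block in grey and with the library number as a block in red. The grey bars have a median length of 0.65 to either side, and with the block mt-Co1 lies at -0.32 between WT and EV and at 0.26 between c915dup and WT.

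The mitochondrial share of FPKM did not separate the groups. It was 3.14% ± 2.02 in EV, 2.63% ± 1.497 in WT and 3.21% ± 1.97 in c915dup (SD, n = 3 each). The difference was -0.503 percentage points between WT and EV (two-sided exact permutation test, p = 0.50), 0.0790 between c915dup and EV (exact p = 0.70) and 0.582 between c915dup and WT (exact p = 0.50), where 3 against 3 cannot go under 0.1. Permuting within the libraries numbered 1 and within the others gave exact p = 0.167, the smallest this design allows, for WT against EV and for c915dup against WT, and 0.50 for c915dup against EV. WT thus had the lowest share within each class, 4.36% against 5.46% and 5.49% in the libraries numbered 1 and 1.69% and 1.85% against 1.86% to 2.17% in the others.

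The makeup of the mitochondrial RNA differed between the groups in its tRNA rows. Of mitochondrial FPKM, tRNA rows held 5.21%, 5.73% and 5.46% in EV 1, 2 and 3, 6.54%, 7.43% and 7.03% in WT 1, 2 and 3, and 7.10%, 7.04% and 7.13% in c915dup 1, 3 and 4. All 6 libraries with LMX1A lay above all 3 with the vector, whatever their number. This total was picked after its values were seen and has no test. It includes rows of the minus strand, mt-Te among them, whose reads may include those of the plus strand precursor. mt-Tl1 and mt-Te held much of this total. Without them the tRNA rows held 1.86% to 2.52% in EV, 2.18% to 3.46% in WT and 2.34% to 2.99% in c915dup. These ranges overlap across the number classes, but EV was still lowest within each class. EV 1 was at 1.86% against 2.18% in WT 1 and 2.34% in c915dup 1. EV 2 and 3 were at 2.52% and 2.33% against 2.78% to 3.46% in the other libraries with LMX1A. mt-Te alone held 1.20% in EV 1 against 1.92% in WT 1 and 1.83% in c915dup 1, and 0.548% and 0.580% in EV 2 and 3 against 0.809% to 0.966% in the 4 other libraries with LMX1A.

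The nuclear genes that copy, read and translate mitochondrial DNA changed little. Without a block limma called 0 members in each comparison of the DNA maintenance and transcription list (20 tested), the RNA processing list (28), the regulator list (15), the mitochondrial ribosomal proteins (78) and the nuclear respiratory subunits (80), and list medians lay between -0.06 and 0.04 on the log2 scale, beside medians between -0.0047 and 0.0016 over all genes tested. Tfam, which packages mitochondrial DNA and starts its transcription, was at 9.44 ± 0.48 FPKM in EV, 9.87 ± 0.63 in WT and 8.56 ± 0.35 in c915dup (SD, n = 3). Polrmt, the mitochondrial RNA polymerase, was at 5.56 ± 0.12, 5.59 ± 0.35 and 5.67 ± 0.17 FPKM. Neither passed in any comparison.

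With the library number as a block, Atf5, a transcription factor of the mitochondrial unfolded protein response, was higher in WT than in EV (0.36 ± 0.06 on the log2 scale, limma, adjusted p = 0.024) and higher in c915dup than in EV (0.36 ± 0.07, limma, adjusted p = 0.033). It was at 32.1, 41.5 and 39.5 FPKM in EV, at 44.4, 51.2 and 49.8 FPKM in WT and at 39.7, 54.1 and 51.2 FPKM in c915dup, so that WT lay above EV without overlap and c915dup 1 lay below EV 2. Ndufs7, a complex I subunit, was higher in c915dup than in EV (0.29 ± 0.05, limma, adjusted p = 0.030) and than in WT (0.37 ± 0.05, limma, adjusted p = 0.020), with 32.1 to 36.9 FPKM against 29.1 to 33.4 and 27.5 to 31.8 FPKM. Cox6a2, a complex IV subunit, was also higher in c915dup in both (0.35 ± 0.07 and 0.37 ± 0.07, limma, adjusted p = 0.045 and 0.048). c915dup 4 carries no weight in these blocked values. With a term for the libraries numbered 1, which uses all 9 libraries, Atf5 still passed in both comparisons, but Ndufs7 (0.17 ± 0.07 against EV and 0.25 ± 0.07 against WT, limma, adjusted p = 0.20 and 0.081) and Cox6a2 (0.27 ± 0.08 and 0.29 ± 0.08, limma, adjusted p = 0.089 and 0.072) did not. No other of the 221 tested members of the 5 lists passed with the block. Over all genes tested 0.804% passed with it between WT and EV, 1.9% between c915dup and EV and 1.15% between c915dup and WT.

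Several of the listed genes with the smallest p separated EV from both other groups without overlap but did not pass with or without the block. Over the lists 22 of 221 genes did not overlap between WT and EV and 26 of 221 between c915dup and EV, 9.95% and 11.8%, against 12.9% and 16.9% of all genes tested. Twnk, the mitochondrial DNA helicase, was at 11.5 to 11.6 FPKM in EV, 9.58 to 10.0 in WT and 9.22 to 9.96 in c915dup. Polg2, the accessory subunit of the mitochondrial DNA polymerase, was at 3.33 to 3.99, 1.86 to 2.74 and 2.68 to 3.11 FPKM in the same order. Ddit3, a stress-response transcription factor, was at 19.6 to 21.7, 22.5 to 24.4 and 24.4 to 24.8 FPKM, and Gdf15, a cytokine secreted in mitochondrial stress, at 2.76 to 2.91, 3.08 to 3.46 and 3.31 to 4.08 FPKM. Hspa9, the mitochondrial Hsp70, was at 186 to 196 FPKM in EV, 202 to 219.5 in WT and 200.5 to 204 in c915dup. Among the translation and respiratory genes, Mrpl24 was at 29.9 ± 1.2, 30.8 ± 1.1 and 34.7 ± 1.1 FPKM and Atp5g1, a subunit of the ATP synthase ring, at 48.6 ± 1.4, 50.9 ± 3.8 and 59.0 ± 4.0 FPKM (SD, n = 3). In both, c915dup lay above EV without overlap, but WT overlapped EV. With a term for the libraries numbered 1 in place of the block, 1 of the 221 tested genes of the lists was higher and 2 lower in WT than in EV, 5 higher and 3 lower in c915dup than in EV, and 6 higher and 2 lower in c915dup than in WT. Over all genes tested 1.22%, 5.54% and 4.81% passed with that term in the same comparisons, so the lists did not stand out. There Atp5g1 passed between c915dup and EV (0.27 ± 0.05, limma, adjusted p = 0.013), as did Ddit3 (0.26 ± 0.05, limma, adjusted p = 0.016), Mrpl24 (0.21 ± 0.05, limma, adjusted p = 0.028) and Gdf15 (0.32 ± 0.08, limma, adjusted p = 0.037), and Twnk was lower (-0.24 ± 0.05, limma, adjusted p = 0.025). Polg2 was lower in WT than in EV with that term (-0.51 ± 0.10, limma, adjusted p = 0.043).

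The remaining genes of the lists with the smallest p did not pass without or with the block; with the term for the libraries numbered 1, Primpol (0.25 ± 0.06, limma, adjusted p = 0.032) and Atp5g2 (0.14 ± 0.03, limma, adjusted p = 0.035) were higher in c915dup than in WT. Primpol, a primase of the organelle, was at 7.12 ± 0.43 FPKM in EV, 6.50 ± 0.18 in WT and 7.89 ± 0.38 in c915dup (SD, n = 3), and Dguok, which supplies nucleotides for mitochondrial DNA, was at 15.5 ± 1.9, 13.7 ± 0.5 and 16.7 ± 0.6 FPKM. Both had their lowest mean in WT. Of the RNA processing genes, the tRNA modification enzyme Trmu was at 4.91 ± 0.74, 3.83 ± 0.15 and 5.11 ± 0.43 FPKM, and the rRNA methyltransferase Mrm1 at 3.70 ± 0.05, 3.18 ± 0.43 and 3.09 ± 0.08 FPKM. The RNA-binding proteins Tbrg4 (17.8 ± 1.2, 16.7 ± 1.1 and 18.6 ± 0.4 FPKM) and Grsf1 (34.5 ± 1.6, 31.9 ± 0.2 and 33.2 ± 1.4 FPKM) also had their lowest mean in WT. The ribosomal protein genes Mrpl35, Mrpl43 and Mrpl38 had group means of 3.85 to 4.94, 24.8 to 27.9 and 28.0 to 31.1 FPKM. Ndufa7, a complex I subunit, was at 138 ± 8, 135 ± 8 and 156 ± 9 FPKM, and Atp5g2, a ring subunit of the ATP synthase, at 132 ± 2, 127 ± 4 and 140.4 ± 5.1 FPKM, both with the highest mean in c915dup.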

How the data were processed

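RNA-seq values of 9 libraries were used. The submitters' processing notes name CASAVA 1.8, Trimmomatic, FastQC, RSEM, HISAT2 and edgeR with build GRCm38, while the series' design text names other programs. The deposited values are FPKM per gene, made by the authors; no header names the unit, which was taken from the values. A second deposited table repeats the 13 mRNAs. Members, lists and the split by library number were chosen with earlier results of these data known.

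The planned edgeR test needs counts and was not used. For 11933 genes reaching 1 FPKM in 3 or more libraries, log2(FPKM + 1) entered limma 3.58.1 (R 4.3.3; eBayes with trend and robust; 3 group means; two-sided; Benjamini-Hochberg over all genes). Members were all named; of the nuclear lists, up to 4 members with the smallest p plus Tfam, Polrmt, Lrpprc and Slirp, and Ndufs7, Atf5 and Cox6a2 also for their calls.

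EV and WT libraries of the same number deviated together from their group means (r = 0.62, 0.39 and 0.26 across genes for numbers 1, 2 and 3). Because number 1 stood apart in each group, the other libraries tend to deviate alike whatever the pairing. These values therefore cannot show pairs among the other numbers, and the block by number was fitted as an alternative. Beyond number 1 the pairs were no closer than other libraries: EV 3 with WT 2 gave 0.30 and EV 2 with WT 3 0.28. c915dup shares numbers 1 and 3 with them, and c915dup 3 correlated more with WT 2 (0.42) and EV 2 (0.35) than with WT 3 (0.23) and EV 3 (0.32). Other fits varied the pseudocount, filter, scaling and number term and left out each library. Nuclear copies were sought with blastn 2.17.0, added after seeing the data. Member coordinates equal GENCODE M21.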

Additional observations from a re-analysis of the deposited data

How the results depend on the processing

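Depth and the libraries numbered 1 limit these results. mt-Nd3 rests on an estimated 23.0 fragments or fewer, and levels of genes with nuclear copies are uncertain. Counts of called members were 0 without a block and moved under 3 of 21 alternatives. For WT against EV, c915dup against EV and c915dup against WT they were 1, 1 and 1 with the replicate block by library number, 1, 3 and 5 with a term for libraries numbered 1, and 1, 4 and 2 without the libraries numbered 1. That term called mt-Tl1, mt-Te and mt-Tt against EV. Between c915dup and WT it called mt-Tl1, mt-Nd1, mt-Co1, mt-Ts1 and mt-Tt, all upward. The percent of all genes called was 1.22, 5.54 and 4.81 with the term and 0.696, 3.38 and 2.92 without those libraries. Leaving out 1 library called 0 members in each comparison. Of 2064 other member differences, 19 became called and 0 called ones reversed; 191 changed sign without a call, 181 of them on leaving out 1 library.

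The share difference (percentage points) ranged from -1.37 to 0.660 for WT against EV, from -1.06 to 1.24 for c915dup against EV and from -0.557 to 1.44 for c915dup against WT when 1 library was left out, and changed sign without EV replicate 1 (0.660), without EV replicate 2 (-0.559), EV replicate 3 (-0.446) or c915dup replicate 1 (-1.06), and without c915dup replicate 1 (-0.557) respectively. These were the 5 sign changes in 30 share differences; leaving out 1 library unbalances the libraries numbered 1 between the groups.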
